A study of Homo sapiens with 14 samples.

Results

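The 43 genes described here encode proteins of the mitotic spindle, the kinetochore and cytokinesis, together with the kinases, cyclins and ubiquitin ligase factors that time entry into and exit from mitosis. They were taken by name from a fixed list, which leaves out the Aurora kinases and their passenger complex and was drawn up with earlier results of these data known. Each of the 43 symbols matched 1 of the 39293 Ensembl gene identifiers of the table, and all 43 had enough counts to be among the 15756 genes tested. RNA-seq was done on MOLM14, an acute myeloid leukaemia cell line that carries an internal tandem duplication of the receptor kinase FLT3. Its early resistance to gilteritinib, an inhibitor of FLT3, was the subject of the series. FGF2 early cells (4 flasks) were MOLM14 cells of early gilteritinib resistance kept with the growth factor FGF2 at 10 ng/mL, and they had received 100 nM gilteritinib for 48 hours. FL early cells (4 flasks) were the same but for FL, the ligand of FLT3, at 10 ng/mL in place of FGF2. The parental arm held 3 libraries of MOLM14 cells with neither drug nor ligand. The acute arm held 3 libraries of parental cells given 100 nM gilteritinib for 48 hours, 1 with no ligand, 1 with FGF2 and 1 with FL, both ligands at 10 ng/mL. All 14 libraries come from 1 cell line. Early and parental cells differ in drug, ligand and history of selection at once, and these cannot be told apart in that comparison.

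A cell enters mitosis when cyclin-dependent kinase 1 is activated by its cyclins and by the phosphatases of the CDC25 family. Kinetochores then assemble on the centromeres and bind spindle microtubules, and the spindle checkpoint holds the cell until every chromosome is attached. Once the checkpoint is satisfied, the anaphase-promoting complex marks securin and cyclin B for destruction, separase opens the cohesin rings, and a midzone of bundled microtubules guides the cleavage furrow. Most of these genes are transcribed in G2 and mitosis and are repressed in resting cells, so their RNA is widely read as a marker of cycling cells.

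Total estimated counts per library ran from 25723575 to 33075041, and expression is given below in CPM, the count of a gene relative to its library's size after scaling with the trimmed mean of M values (TMM). Log2 fold changes carry their standard error, and adjusted p-values are from edgeR's quasi-likelihood test with Benjamini-Hochberg adjustment over all genes tested. The myeloid markers CD33, LYZ, SPI1, FLT3, MPO, CSF1R and PTPRC were detected in every library, and CD14 stayed at or under 0.8198 CPM. The erythroid genes HBB, HBG1 and ALAS2 were at 0 in all libraries, CD3E and MS4A1 reached at most 0.0656 and 0.0300 CPM, and 4 stromal markers reached at most 1.66 CPM. Copies with near-identical sequence, to which reads of members could be assigned, held at most 0.115 CPM (PTTG2, against PTTG1) and 0.0965 CPM (KIF4B, against KIF4A). FL early replicate 1 was low on the 43 genes within its line. It was the lowest of the 4 FL early flasks for 34 of them, and they took 0.320% of its counts, against 0.405%, 0.413% and 0.355% in replicates 2, 3 and 4. Results that rest on FL early replicate 1 are given with and without it. Parental replicate 3 was likewise the lowest of the 3 parental libraries for 32 of the genes. They took 0.447% of its counts, against 0.465% and 0.471% in parental replicates 1 and 2. All comparisons with parental cells include it.

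Acute gilteritinib was accompanied by a fall of the whole group. All 43 genes were lower in the acute arm than in parental cells, with a median log2 fold change of −3.55, beside 30.3% of all genes tested that were lower and a median of 0.07 over all of them. The smallest fall was that of PRC1 (−2.18) and the deepest that of PBK (−6.43), and 36 of the 43 fell at least 8-fold. Adjusted p-values ran from 1.85e-12 to 7.44e-08, and the acute libraries lay below the parental ones with no overlap for all 43 genes, against 33.4% of all genes tested. Together the genes took 0.447% to 0.471% of the counts of a parental library, and 0.0531%, 0.0468% and 0.0414% in the acute libraries without ligand, with FGF2 and with FL. Their median level was 9.66%, 8.77% and 7.89% of the parental mean in the same order. In bulk RNA, fewer cells in G2 and mitosis and less RNA of these genes per cell cannot be told apart. The falls by role were alike in size, with medians of −3.63 for entry into mitosis, −3.37 for the checkpoint and the anaphase-promoting complex, −3.60 for the kinetochore, −3.59 for the spindle, −3.25 for cytokinesis and −3.41 for TOP2A and MKI67. Every one of these calls was kept under each of the 14 alternatives, which include the acute library without ligand taken alone.

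**Figure D1:**
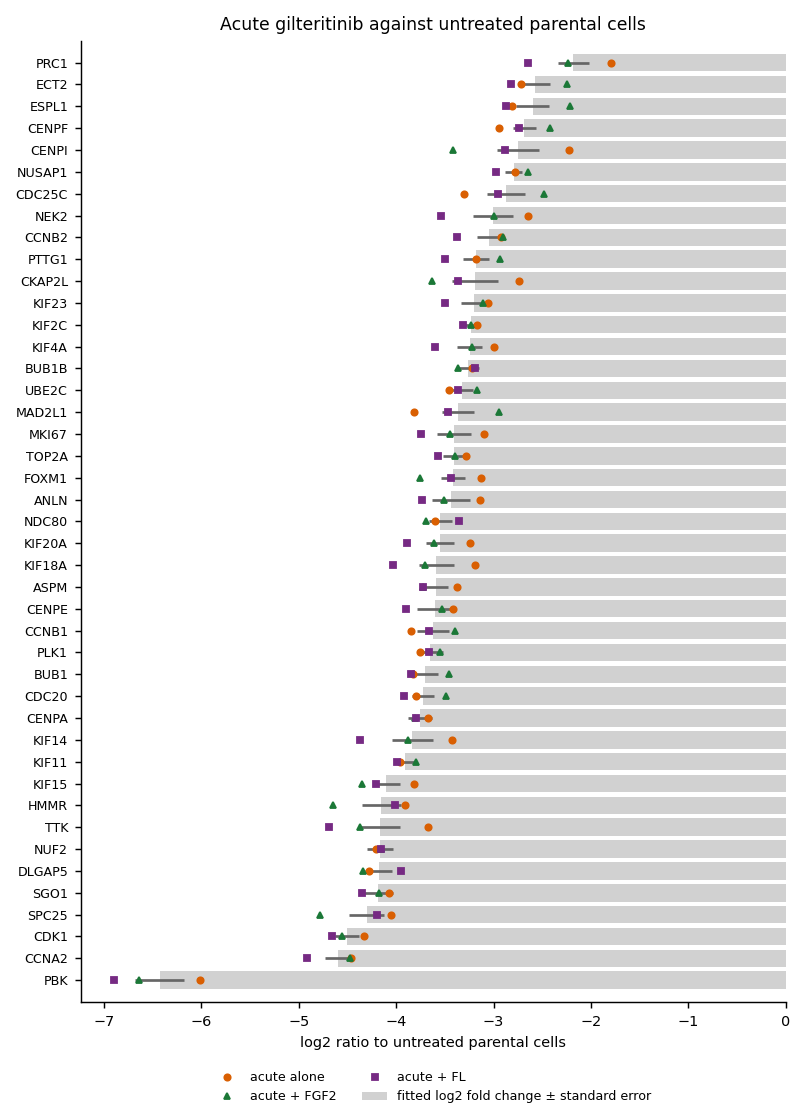
Log2 ratio to untreated parental cells in the acute arm, 1 row per gene, ordered by size. Bars show the fitted log2 fold change with its standard error, and symbols show each acute library's own log2 ratio to the mean of the 3 parental libraries. All symbols lie at or below −1.79, and PBK and PRC1 mark the ends.

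Early resistant cells under the same dose for the same time did not show this fall. All 43 genes were higher in FGF2 early than in acute cells (median 3.15, range 1.95 to 6.04, with 31.1% of all genes tested higher and 32.4% lower). All 43 were also higher in FL early than in acute cells (median 3.22, range 1.83 to 5.87, with 30.5% of all genes higher and 29.7% lower). The 2 comparisons share the 3 acute libraries, which mix ligand states, so their spread includes the ligands. Early and acute cells also differ in history of selection, and most acute libraries did not have the ligand of the early line. Ligand and history cannot be told apart in these comparisons. Adjusted p-values were at most 1.14e-07 and 1.70e-07. No early flask overlapped an acute library for any of the 43, against 31.8% of all genes tested wholly higher in FGF2 early and 28% in FL early.

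Against parental cells the early lines were lower by a small amount. In FGF2 early cells 21 of 43 genes (48.8%) were lower and 0 higher, beside 17.1% of all genes tested lower and 13.3% higher. Their median log2 fold change was −0.35 against 0.01 over all genes. In FL early cells 17 of 43 (39.5%) were lower and 0 higher, beside 9.76% of all genes lower and 10.9% higher, with a median of −0.31 against 0.01. Both comparisons use the same 3 parental libraries. The largest change was −0.83 (CDK1) in FGF2 early and −0.56 (CDK1) in FL early, so no gene changed by as much as 2-fold. The 4 flasks lay wholly below the 3 parental libraries for 31 genes in FGF2 early (26.2% of all genes tested) and for 32 in FL early (17.4%), and wholly above them for 0 in either (22% and 13.7%). With total counts in place of TMM, the share of lower among all called genes went from 56.3% to 42.8% in FGF2 early, and 18 of the 43 genes were lower and 0 higher. The median ratio to the parental mean was between −0.38 and −0.32 in the 4 FGF2 early flasks. It was −0.52, −0.24, −0.20 and −0.33 in FL early replicates 1 to 4.

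**Figure D2:**
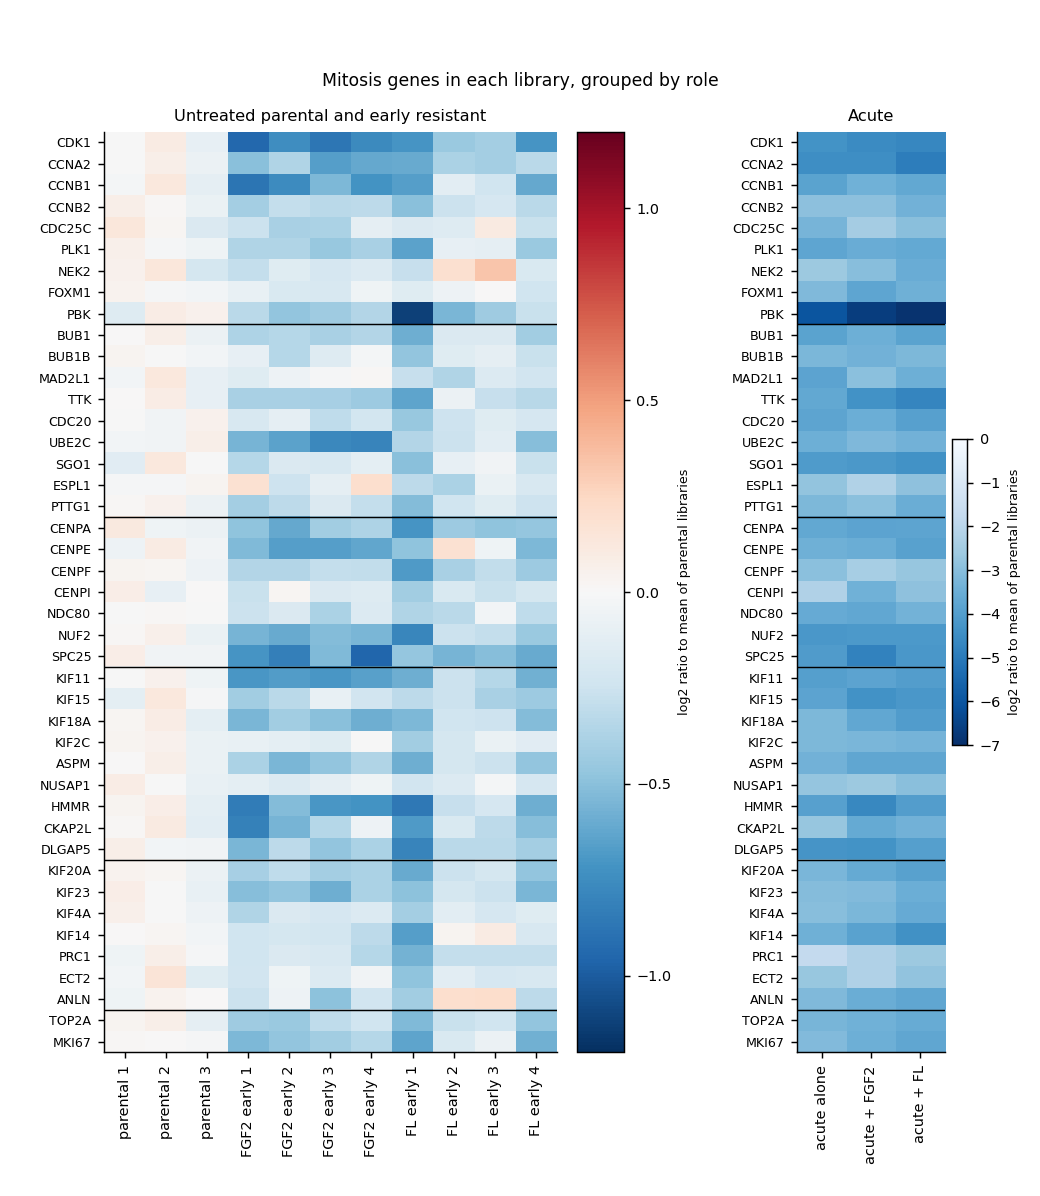
Log2 ratio of each gene to the mean of the 3 parental libraries, 1 column per library, with genes grouped by role from entry into mitosis (top) to chromosome proteins (bottom). The 2 panels have separate colour scales, since the early flasks range from −1.12 to 0.33 and the acute libraries from −6.89 to −1.79.

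The count in FL early depended on single libraries. It was 10 without FL early replicate 1 and 11 without FL early replicate 4. It was 8, 6 and 11 without parental replicates 1, 2 and 3, while DESeq2 called 27. Lower calls over all genes tested moved too, from 1537 to 1206, 1541, 799, 727 and 1202 in the same order, and to 2085 with DESeq2. The median log2 fold change of the 43 was −0.25, −0.30, −0.32, −0.31 and −0.35 without these libraries, and −0.33 with DESeq2. CDK1, CENPA, CENPF and KIF11 kept their FL early call under all 15 alternatives. In FGF2 early 14 of the 21 calls were kept under all 15, namely CDK1, CCNA2, CCNB1, UBE2C, CENPA, CENPE, NUF2, SPC25, KIF11, ASPM, HMMR, DLGAP5, KIF23 and TOP2A. Fitting FGF2 early and parental libraries alone gave 31 lower genes, and lower calls over all genes tested then went from 2698 to 3630. Of the 43 genes, 15 were lower in both early lines by each line's own test, 6 in FGF2 early alone, 2 in FL early alone and 20 in neither. The 2 tests share the 3 parental libraries, and the share of all genes lower in both was not counted. The overlap is therefore not read as particular to these genes.

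**Figure D3:**
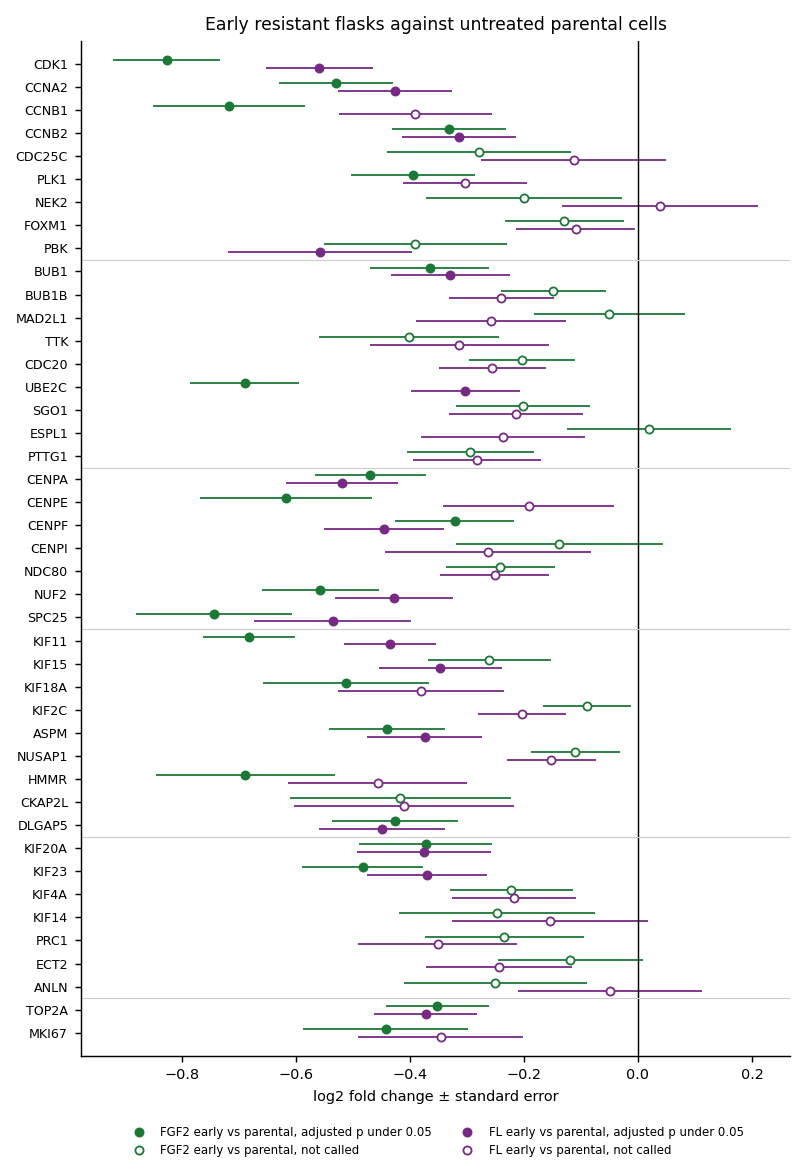
Log2 fold change with its standard error for each gene, FGF2 early (green) and FL early (purple) against the same 3 parental libraries. Filled points have an adjusted p under 0.05. All points but ESPL1 in FGF2 early and NEK2 in FL early lie below 0.

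Promoters of the group share letters that the list did not use. Genes transcribed in G2 and mitosis are known to carry the cell cycle genes homology region (CHR), through which the DREAM complex represses them in resting cells and the MuvB core with B-MYB and FOXM1 activates them in cycling cells, often beside CCAAT boxes bound by NF-Y. RefSeq windows (GRCh38.p14, 250 bases before to 50 after an annotated start) were searched on both strands for TTTGAA or TTCGAA as the CHR and for CCAAT. A window was found by symbol for 39 of the 43 genes (45 windows), and TTK, FOXM1, PBK and UBE2C had none. A CHR match was present in 31 of the 39 genes (79.5%, against 19.5% of all 27305 genes) and in 34 of their 45 windows (75.6%, against 16.4% of the 35116 windows of all genes). Within the 60 bases before the start it was present in 44.4% of their windows against 3.17% of all. CCAAT was present in 75.6% of their windows against 34.6%, and both motifs in 62.2% against 6.38%. These background shares are over all genes with a RefSeq window, not over the 15756 genes tested as elsewhere. The list also holds genes of the class known to carry the CHR. A match is a run of letters and no measured binding.

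Of the genes with a single window, 5 had 110 bases before the start that touch no annotated exon. KIF14 and CENPF hold CCAAT there but no CHR, and the other 3 stretches, printed first, were chosen because they show both motifs. They belong to KIF11, which was lower in both early lines, to the proliferation marker MKI67 and to ESPL1, which was not called in either early line. Capitals mark the CHR (TTTGAA, or TTCAAA where it reads on the other strand) and CCAAT (or ATTGG on the other strand), and in MKI67 the second CHR overlaps an ATTGG.
KIF11 (GRCh38.p14, chr10:92593020-92593129, plus strand): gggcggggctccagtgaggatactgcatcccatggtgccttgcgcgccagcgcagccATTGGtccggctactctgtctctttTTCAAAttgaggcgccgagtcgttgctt
MKI67 (GRCh38.p14, chr10:128126424-128126533, minus strand): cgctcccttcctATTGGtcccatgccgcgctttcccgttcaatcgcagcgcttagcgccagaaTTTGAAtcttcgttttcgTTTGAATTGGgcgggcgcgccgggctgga
ESPL1 (GRCh38.p14, chr12:53268189-53268298, plus strand): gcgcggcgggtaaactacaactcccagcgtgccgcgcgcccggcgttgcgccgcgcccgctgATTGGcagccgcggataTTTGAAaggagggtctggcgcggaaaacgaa
The CHR lies 28 bases before the start in KIF11, 47 and 29 in MKI67 and 31 in ESPL1, counted from the first letter of the match. Pieces of 30 bases around the match show genes of mitotic entry, the checkpoint, the kinetochore and cytokinesis, with capitals for the CHR alone. Only matches that begin within 60 bases before the start and leave 12 bases between their end and the start could be printed so, and that choice limits their distances.
CCNB2 (GRCh38.p14, chr15:59105105-59105134, plus strand, 29 bases before the start): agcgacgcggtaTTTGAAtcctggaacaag
PLK1 (GRCh38.p14, chr16:23678848-23678877, plus strand, 29 bases before the start): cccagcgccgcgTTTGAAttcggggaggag
CDC25C (GRCh38.p14, chr5:138331817-138331846, minus strand, 30 bases before the start): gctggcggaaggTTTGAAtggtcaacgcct
BUB1B (GRCh38.p14, chr15:40161034-40161063, plus strand, 23 bases before the start): gggaccgttaaaTTTGAAacttggcggcta
CENPA (GRCh38.p14, chr2:26786026-26786055, plus strand, 18 bases before the start): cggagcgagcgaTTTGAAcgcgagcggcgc
KIF4A (GRCh38.p14, chrX:70290058-70290087, plus strand, 34 bases before the start): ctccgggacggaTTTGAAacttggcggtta
KIF23 (GRCh38.p14, chr15:69414282-69414311, plus strand, 55 bases before the start): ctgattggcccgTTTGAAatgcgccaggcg
PRC1 (GRCh38.p14, chr15:90994538-90994567, minus strand, 20 bases before the start): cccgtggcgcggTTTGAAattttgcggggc
Such matches were 17, in 14 genes. Another 6, among them those of CDK1 and NDC80, lay too near the start to be printed, 14 lay 65 to 247 bases before it, and 11 began at or after it, of 48 matches over all windows. The acute fall had a median of −3.55 in the 31 genes with a CHR match in a window and −3.39 in the 8 without one, with ranges of −4.51 to −2.18 and −4.60 to −2.75 that overlap. In the early lines the medians were −0.33 and −0.33 in FGF2 early and −0.35 and −0.27 in FL early, with and without a match.

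**Figure D4:**
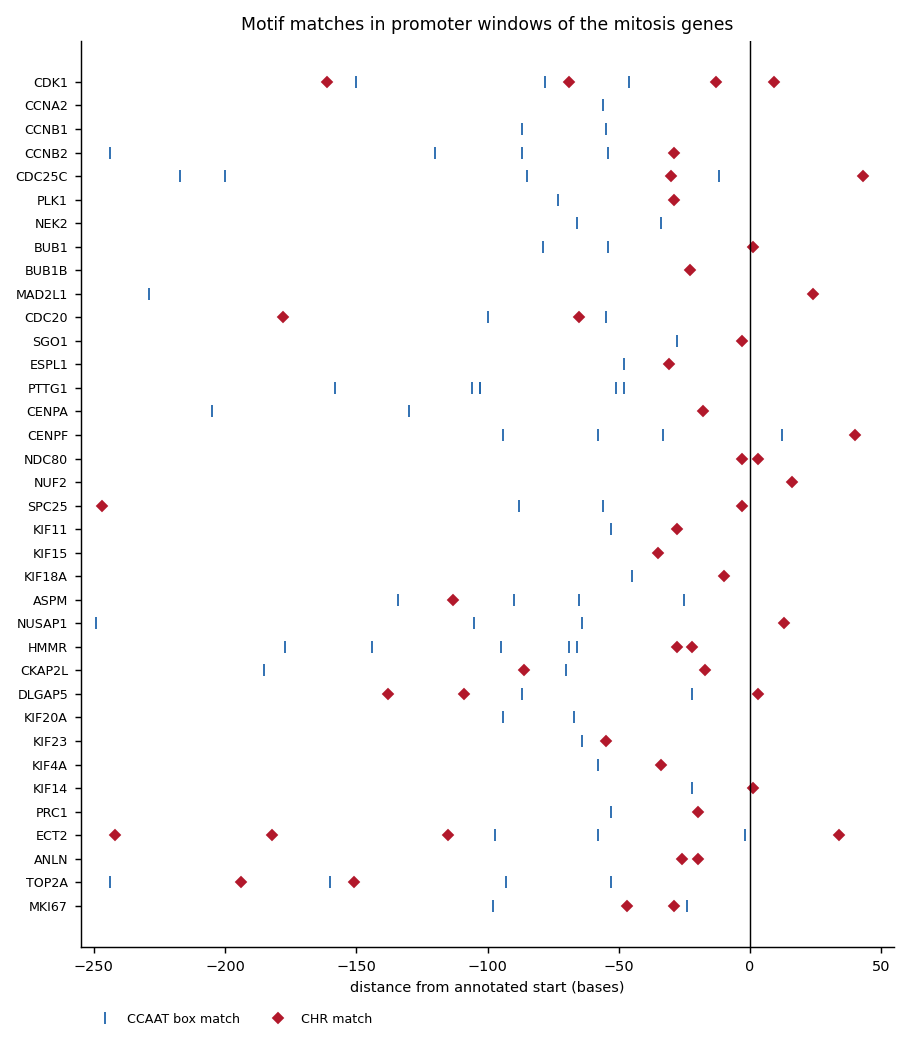
First base of each CHR match (red diamonds) and CCAAT match (blue bars) in the promoter windows, by distance from the annotated start in bases, for the genes with at least 1 match. All windows of a gene share 1 row, and in 20 of the 39 genes a diamond lies within the 60 bases before the start.

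Of the 9 genes of mitotic entry, all fell in acute cells, 5 were lower in FGF2 early and 4 in FL early. Over all genes tested 30.3% were lower in acute, 17.1% in FGF2 early and 9.76% in FL early cells. These shares stand beside the counts of every role below. CDK1, the kinase whose activation starts mitosis, stood at 162, 174 and 152 CPM in parental replicates 1 to 3 and at 8.099, 6.91 and 6.43 CPM in the acute libraries without ligand, with FGF2 and with FL. CDK1 was at 84.9, 97.2, 89.5 and 95.9 CPM in the FGF2 early flasks 1 to 4 and at 99.9, 119.9, 123 and 99.996 CPM in the FL early flasks 1 to 4. The arms did not overlap, and FGF2 early lay wholly below FL early. The acute change of CDK1 was −4.51 ± 0.12 (adjusted p = 2.62e-12), and against parental cells it was −0.83 ± 0.09 in FGF2 early (adjusted p = 4.39e-05) and −0.56 ± 0.09 in FL early (adjusted p = 0.00142).

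CCNB1, or cyclin B1, the partner that activates CDK1, stood at 157, 174 and 148 CPM in parental cells and at 11.1, 15.2 and 12.6 CPM in the acute libraries in the same order. CCNB1 levels were 87.2, 94.5, 109.6 and 96.9 CPM in FGF2 early replicates 1 to 4 and 101, 146, 135 and 104 CPM in FL early replicates 1 to 4. All early flasks lay below parental cells, and FL early replicates 2 and 3 lay above every FGF2 early flask. The change of CCNB1 against parental cells was −0.72 ± 0.13 in FGF2 early (adjusted p = 0.00135) and −0.39 ± 0.13 in FL early (adjusted p = 0.0531). The FL early value passed the threshold without FL early replicate 2 (adjusted p = 0.0206) or 3 (adjusted p = 0.0479) and with DESeq2 (adjusted p = 0.0228), RLE scaling (adjusted p = 0.0459) or upper quartile scaling (adjusted p = 0.0394).

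PLK1, a kinase that acts at centrosomes, kinetochores and the midbody, stood at 148, 140.3 and 137 CPM in parental and 10.5, 12.1 and 11.2 CPM in acute libraries, a change of −3.65 ± 0.13. PLK1 stood at 109.98, 110.1, 103 and 108 CPM in FGF2 early replicates 1 to 4, and at 90.9, 132, 132 and 104 CPM in FL early replicates 1 to 4. The FL early flasks were split, with replicates 2 and 3 near the parental range and replicates 1 and 4 near the FGF2 early range. Its change was −0.39 ± 0.11 in FGF2 early (adjusted p = 0.0142) and −0.30 ± 0.11 in FL early (adjusted p = 0.0631), and the FGF2 early call was lost without parental replicate 1 (adjusted p = 0.0599).

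PBK, a mitotic serine/threonine kinase, had the deepest acute fall. It stood at 24.7, 29.2 and 28.5 CPM in parental libraries and at 0.426, 0.275 and 0.231 CPM in acute ones, where 6 to 13 counts were recorded, a change of −6.43 ± 0.26 (adjusted p = 7.09e-11). PBK was at 22.01, 19.8, 20.5 and 21.6 CPM in the FGF2 early flasks 1 to 4 and at 12.7, 18.8, 20.5 and 22.8 CPM in the FL early flasks 1 to 4. FL early replicate 1 was the lowest early flask. PBK was lower in FL early (−0.56 ± 0.16, adjusted p = 0.0261), a call lost without parental replicate 2 (adjusted p = 0.105) or 3 (adjusted p = 0.0721) and with the FL early and parental arms alone (adjusted p = 0.0767). Its FGF2 early value of −0.39 ± 0.16 was not called (adjusted p = 0.0811), although it was with the FGF2 early and parental arms alone (adjusted p = 0.00411).

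NEK2, a kinase that separates centrosomes, stood at 32.9, 34.9 and 27.5 CPM in parental and 5.08, 3.99 and 2.73 CPM in acute libraries, a change of −3.01 ± 0.21. NEK2 levels were 26.03, 28.7, 27.5 and 28.4 CPM in FGF2 early replicates 1 to 4 and 26.2, 36.3, 39.9 and 28.1 CPM in FL early replicates 1 to 4. FL early replicates 2 and 3 exceeded every parental library, and 3 FGF2 early flasks exceeded the lowest one. NEK2 was not called in either line, with −0.20 ± 0.17 in FGF2 early (adjusted p = 0.402) and 0.04 ± 0.17 in FL early (adjusted p = 0.898). The sign of its FL early value turned without FL early replicate 2 (−0.02) or 3 (−0.07) or without parental replicate 3 (−0.06).

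Among the other entry genes, cyclin A2 (CCNA2) and cyclin B2 (CCNB2) were lower in both lines, with log2 fold changes between −0.53 and −0.31, while CDC25C, the phosphatase that activates CDK1, was called in neither. The call of CCNA2 in FL early was lost without parental replicate 2 (adjusted p = 0.0526). The calls of CCNB2 were each lost without parental replicate 1 or 2, and without FGF2 early replicate 1 in FGF2 early, or without FL early replicate 1 or 4 or parental replicate 3 in FL early (adjusted p up to 0.0892 and 0.142). Both were also lost with total counts in place of TMM (adjusted p = 0.0727 and 0.0616). FOXM1, the transcription factor of this gene programme, stood at 91.9, 88.4 and 87.6 CPM in parental libraries and 10.2, 6.598 and 8.24 CPM in acute ones. FOXM1 stood at 83.9, 78.5, 77.98 and 86.3 CPM in FGF2 early replicates 1 to 4, and at 80.6, 85.4, 89.8 and 75.5 CPM in FL early replicates 1 to 4. Its FL early replicate 3 reached the parental range. FOXM1 fell in acute cells (−3.42 ± 0.13, adjusted p = 3.55e-11) and was not called in the early lines, with −0.13 ± 0.10 in FGF2 early (adjusted p = 0.372) and −0.11 ± 0.10 in FL early (adjusted p = 0.499).

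Of the 9 genes of the checkpoint and the anaphase-promoting complex pathway, all fell in acute cells, and 2, BUB1 and UBE2C, were lower in each early line. These 2 of 9 stand beside 17.1% of all genes tested lower in FGF2 early and 9.76% in FL early. With so few genes the count is not read as a trait of the role. UBE2C, the ubiquitin-conjugating enzyme of the anaphase-promoting complex, stood at 73.8, 73.6 and 79.7 CPM in parental and 6.89, 8.42 and 7.35 CPM in acute libraries, a change of −3.32 ± 0.12. UBE2C was at 51.4, 48.4, 44.2 and 43.8 CPM in the FGF2 early flasks 1 to 4 and at 59.3, 63.4, 69.6 and 53.2 CPM in the FL early flasks 1 to 4. Every FGF2 early flask lay below every FL early flask, and every FL early flask below parental cells. The change of UBE2C was −0.69 ± 0.10 in FGF2 early (adjusted p = 1.97e-04) and −0.30 ± 0.10 in FL early (adjusted p = 0.0382). In FL early its call was lost without any 1 of 6 libraries (FL early replicates 1, 2 and 4 and the 3 parental ones, adjusted p 0.0505 to 0.119), without the low-count filter (adjusted p = 0.0567) and with the FL early and parental arms alone (adjusted p = 0.0675).

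BUB1, a kinase that loads checkpoint proteins on kinetochores, stood at 150.1, 157 and 142 CPM in parental and 10.5, 13.6 and 10.4 CPM in acute libraries, a change of −3.70 ± 0.13. BUB1 levels were 116, 118, 114 and 117 CPM in FGF2 early replicates 1 to 4 and 99.6, 133, 132 and 112 CPM in FL early replicates 1 to 4. The FGF2 early flasks were close to each other, and FL early split into a higher and a lower pair. Its change was −0.37 ± 0.10 in FGF2 early (adjusted p = 0.0167) and −0.33 ± 0.10 in FL early (adjusted p = 0.0386). In FGF2 early BUB1 was no longer called when parental replicate 1 or 2 was left out (adjusted p = 0.0518 and 0.0705), and in FL early it was lost when any parental library, or FL early replicate 1 or 4, was left out (adjusted p between 0.0539 and 0.141) or the 2 arms were fitted alone (adjusted p = 0.0742).

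CDC20, which activates the anaphase-promoting complex, stood at 166, 162 and 173 CPM in parental and 11.97, 14.9 and 11.01 CPM in acute libraries, a change of −3.72 ± 0.11. CDC20 stood at 146, 155, 135 and 143 CPM in FGF2 early replicates 1 to 4, and at 122, 141, 151 and 145 CPM in FL early replicates 1 to 4. All 8 early flasks lay below parental cells, and neither change was called, at −0.20 ± 0.09 in FGF2 early (adjusted p = 0.113) and −0.26 ± 0.09 in FL early (adjusted p = 0.0665). With the FGF2 early and parental arms alone it was called lower (adjusted p = 0.0139), and in FL early with DESeq2 (adjusted p = 0.0234) or upper quartile scaling (adjusted p = 0.0404).

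SGO1, which shields centromeric cohesin until anaphase, had the deepest acute fall of this role (−4.19 ± 0.16, adjusted p = 3.44e-11). It stood at 18.6, 22.4 and 20.4 CPM in parental and 1.21, 1.13 and 1.001 CPM in acute libraries. SGO1 was at 16.2, 18.2, 17.95 and 18.9 CPM in the FGF2 early flasks 1 to 4 and at 14.4, 19.2, 19.9 and 17.04 CPM in the FL early flasks 1 to 4. FGF2 early replicate 4 and FL early replicates 2 and 3 reached the parental range, and neither early change was called, at −0.20 ± 0.12 in FGF2 early (adjusted p = 0.214) and −0.21 ± 0.12 in FL early (adjusted p = 0.217).

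ESPL1, or separase, the protease that opens cohesin rings, stood at 69.7, 69.4 and 71.8 CPM in parental and 10.03, 15.2 and 9.59 CPM in acute libraries, a change of −2.60 ± 0.17. ESPL1 levels were 79.7, 59.4, 65.2 and 80.7 CPM in FGF2 early replicates 1 to 4 and 56.6, 54.000, 66.6 and 61.6 CPM in FL early replicates 1 to 4. FGF2 early replicates 1 and 4 lay above all parental libraries, replicates 2 and 3 below them, and the FL early flasks below them. ESPL1 was not called, at 0.02 ± 0.14 in FGF2 early (adjusted p = 0.933) and −0.24 ± 0.14 in FL early (adjusted p = 0.265). Its FGF2 early sign turned without FGF2 early replicate 1 (−0.03) or 4 (−0.05). The other checkpoint kinases and adaptors, BUB1B, MAD2L1 and TTK, and securin (PTTG1) had early values between −0.40 and −0.05, none of them called. MAD2L1, the smallest of these, changed sign in FGF2 early with total counts in place of TMM (0.03) or without parental replicate 2 (0.02).

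Of the 7 kinetochore genes, all fell in acute cells, 5 were lower in FGF2 early and 4 in FL early. CENPA, the histone variant that marks centromeres, stood at 25.02, 22.2 and 21.9 CPM in parental and 1.803, 1.65 and 1.66 CPM in acute libraries, a change of −3.75 ± 0.12. CENPA stood at 16.5, 15.03, 17.2 and 17.8 CPM in FGF2 early replicates 1 to 4, and at 14.1, 16.99, 16.5 and 16.7 CPM in FL early replicates 1 to 4. No early flask overlapped parental cells, and the ranges of the early lines overlapped each other. Its change was −0.47 ± 0.10 in FGF2 early (adjusted p = 0.00278) and −0.52 ± 0.10 in FL early (adjusted p = 0.0029).

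CENPF, a large protein of the outer kinetochore, stood at 445, 444 and 419 CPM in parental and 56.7, 81.2 and 65.4 CPM in acute libraries, a change of −2.69 ± 0.12. CENPF was at 341, 342, 357 and 355 CPM in the FGF2 early flasks 1 to 4 and at 273, 333, 354 and 321 CPM in the FL early flasks 1 to 4. All early flasks were below parental cells. Its change was −0.32 ± 0.10 in FGF2 early (adjusted p = 0.0319) and −0.44 ± 0.10 in FL early (adjusted p = 0.00977), and the FGF2 early call was lost without any 1 of the 7 libraries compared (adjusted p 0.0501 to 0.096).

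CENPE, the kinesin that carries chromosomes to the spindle equator, stood at 53.5, 59.8 and 54.1 CPM in parental and 5.21, 4.85 and 3.73 CPM in acute libraries, a change of −3.60 ± 0.19. CENPE levels were 38.7, 35.3, 35.3 and 36.3 CPM in FGF2 early replicates 1 to 4 and 39.9, 63.3, 53.7 and 38.5 CPM in FL early replicates 1 to 4. The FGF2 early flasks were all below parental cells, while FL early replicate 2 exceeded every parental library and replicate 3 lay within their range. CENPE was lower in FGF2 early (−0.62 ± 0.15, adjusted p = 0.00707) and not called in FL early (−0.19 ± 0.15, adjusted p = 0.398).

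NUF2 and SPC25, both subunits of the NDC80 complex that grips microtubules, were lower in each line. NUF2 stood at 56.6, 58.8 and 53.3 CPM in parental and 3.05, 3.16 and 3.16 CPM in acute libraries, a change of −4.17 ± 0.13. NUF2 stood at 38.2, 37.1, 39.2 and 38.5 CPM in FGF2 early replicates 1 to 4, and at 32.6, 47.1, 46.1 and 41.4 CPM in FL early replicates 1 to 4. Its change was −0.56 ± 0.10 in FGF2 early (adjusted p = 0.00128) and −0.43 ± 0.10 in FL early (adjusted p = 0.0108), the latter lost without parental replicate 2 (adjusted p = 0.0557) or with the 2 arms alone (adjusted p = 0.0551).

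SPC25 stood at 14.95, 13.7 and 13.7 CPM in parental and 0.853, 0.515 and 0.7699 CPM in acute libraries, the deepest acute fall of this role (−4.30 ± 0.18, adjusted p = 1.34e-10). SPC25 was at 8.64, 8.04, 9.82 and 7.31 CPM in the FGF2 early flasks 1 to 4 and at 10.2, 9.58, 9.94 and 9.31 CPM in the FL early flasks 1 to 4. For both subunits the early flasks lay below all parental libraries. The change of SPC25 was −0.74 ± 0.14 in FGF2 early (adjusted p = 0.0013) and −0.54 ± 0.14 in FL early (adjusted p = 0.0152), the latter lost without parental replicate 1 (adjusted p = 0.0718). NDC80 itself, at −0.24 ± 0.10 and −0.25 ± 0.10, was called in neither line (adjusted p = 0.0704 and 0.0776).

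CENPI, a subunit of the inner kinetochore, stood at 15.9, 14.1 and 15.1 CPM in parental and 3.21, 1.41 and 2.04 CPM in acute libraries. CENPI levels were 12.5, 15.3, 13.4 and 13.5 CPM in FGF2 early replicates 1 to 4 and 11.3, 13.3, 12.5 and 13.03 CPM in FL early replicates 1 to 4. FGF2 early replicate 2 lay within the parental range and the other early flasks below it. CENPI fell in acute cells (−2.75 ± 0.22, adjusted p = 7.44e-08) and was not called in the early lines, at −0.14 ± 0.18 in FGF2 early (adjusted p = 0.596) and −0.26 ± 0.18 in FL early (adjusted p = 0.329).

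Of the 9 spindle genes, all fell in acute cells, 5 were lower in FGF2 early and 4 in FL early. KIF11, the kinesin that pushes the spindle poles apart, stood at 166, 172 and 159.9 CPM in parental and 10.7, 11.9 and 10.4 CPM in acute libraries, a change of −3.91 ± 0.10. KIF11 stood at 102, 104, 102 and 105 CPM in FGF2 early replicates 1 to 4, and at 110.04, 139, 130.4 and 111 CPM in FL early replicates 1 to 4. The 3 arms formed separate ranges, with FGF2 early lowest and parental cells highest. Its change was −0.68 ± 0.08 in FGF2 early (adjusted p = 5.96e-05) and −0.43 ± 0.08 in FL early (adjusted p = 0.00265).

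DLGAP5, which stabilises the microtubules near chromosomes, stood at 77.98, 72.9 and 72.4 CPM in parental and 3.84, 3.68 and 4.81 CPM in acute libraries, a change of −4.18 ± 0.14. DLGAP5 was at 51.005, 59.8, 53.7 and 57.1 CPM in the FGF2 early flasks 1 to 4 and at 43.1, 59.3, 59.6 and 56.04 CPM in the FL early flasks 1 to 4. No early flask reached the parental range, and FL early replicate 1 was the lowest. Its change was −0.43 ± 0.11 in FGF2 early (adjusted p = 0.0102) and −0.45 ± 0.11 in FL early (adjusted p = 0.0123), the latter lost without parental replicate 1 (adjusted p = 0.059).

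NUSAP1, a microtubule bundling protein, stood at 139.5, 131 and 123 CPM in parental and 19.1, 20.9 and 16.6 CPM in acute libraries, a change of −2.80 ± 0.09. NUSAP1 levels were 121, 117, 121 and 127 CPM in FGF2 early replicates 1 to 4 and 112, 117, 129 and 114 CPM in FL early replicates 1 to 4. FGF2 early replicate 4 and FL early replicate 3 exceeded parental replicate 3, and the change was not called, at −0.11 ± 0.08 in FGF2 early (adjusted p = 0.308) and −0.15 ± 0.08 in FL early (adjusted p = 0.184). KIF2C, a kinesin that takes microtubules apart, stood at 117, 118 and 109 CPM in parental and 12.7, 12.2 and 11.5 CPM in acute libraries, a change of −3.24 ± 0.09. KIF2C stood at 108, 105, 103 and 114 CPM in FGF2 early replicates 1 to 4, and at 85.9, 98.8, 109 and 105 CPM in FL early replicates 1 to 4. For KIF2C the lowest parental library was matched or exceeded by FGF2 early replicate 4 and FL early replicate 3. Its change was not called, at −0.09 ± 0.08 in FGF2 early (adjusted p = 0.406) and −0.20 ± 0.08 in FL early (adjusted p = 0.0753).

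The remaining spindle genes fell in acute cells with log2 fold changes between −4.15 and −3.19. ASPM, a protein of the spindle poles, was lower in both early lines (−0.44 ± 0.10 and −0.37 ± 0.10). Its FL early call was lost without FL early replicate 1 or parental replicate 1 or 2 (adjusted p up to 0.0872). HMMR, a spindle pole protein, and the kinesin KIF18A were lower in FGF2 early (−0.69 ± 0.16 and −0.51 ± 0.15), the KIF18A call being lost when parental replicate 1 or 2 was left out (adjusted p = 0.0561 and 0.0704). KIF15, another kinesin that holds the poles apart, was lower in FL early (−0.35 ± 0.11), a call lost without any 1 of 6 libraries (FL early replicates 1, 3 and 4 and the 3 parental ones, adjusted p 0.0544 to 0.165) or with total counts (adjusted p = 0.0717). CKAP2L, with −0.42 ± 0.19 and −0.41 ± 0.19, was called in neither (adjusted p = 0.117 and 0.149).

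Of the 7 cytokinesis genes, all fell in acute cells, and KIF20A and KIF23 were lower in both early lines. These 2 of 7 stand beside 17.1% of all genes tested lower in FGF2 early and 9.76% in FL early, and the role holds few genes. KIF23, the kinesin of the centralspindlin complex, stood at 59.2, 55.9 and 52.8 CPM in parental and 6.72, 6.49 and 4.97 CPM in acute libraries, a change of −3.20 ± 0.13. KIF23 was at 39.3, 40.4, 37.4 and 43.1 CPM in the FGF2 early flasks 1 to 4 and at 39.9, 48.2, 46.7 and 38.3 CPM in the FL early flasks 1 to 4. No early flask overlapped parental cells. Its change was −0.48 ± 0.11 in FGF2 early (adjusted p = 0.00381) and −0.37 ± 0.11 in FL early (adjusted p = 0.0248), the latter lost without FL early replicate 1 or 4 or parental replicate 1 or 2 (adjusted p 0.0529 to 0.106). KIF20A, a kinesin of the central spindle, changed by −0.37 ± 0.12 and −0.38 ± 0.12. Its FGF2 early call was lost without FGF2 early replicate 1, 3 or 4 or parental replicate 1 or 2, and its FL early call on leaving out any parental library or FL early replicate 1 or 4 (adjusted p up to 0.09 and 0.12). With total counts neither was called (adjusted p = 0.0956 and 0.0711).

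PRC1, which bundles the microtubules of the midzone, kept the most of its RNA in acute cells. It stood at 129.7, 142 and 133 CPM in parental and 38.95, 28.6 and 21.6 CPM in acute libraries, a change of −2.18 ± 0.16 (adjusted p = 3.29e-08). PRC1 levels were 114, 119.7, 118 and 106 CPM in FGF2 early replicates 1 to 4 and 91.01, 110.3, 111 and 111 CPM in FL early replicates 1 to 4. The early flasks lay below parental cells, but PRC1 was not called, at −0.23 ± 0.14 in FGF2 early (adjusted p = 0.221) and −0.35 ± 0.14 in FL early (adjusted p = 0.0892). It was called with the 2 arms alone in FGF2 early (adjusted p = 0.00836) and in FL early (adjusted p = 0.0289), and with DESeq2 in FL early (adjusted p = 0.0494).

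KIF14, a kinesin that acts at the midbody, stood at 80.9, 82.2 and 79.1 CPM in parental and 7.51, 5.498 and 3.89 CPM in acute libraries, the deepest acute fall of this role (−3.83 ± 0.21, adjusted p = 2.55e-09). KIF14 stood at 68.2, 69.7, 69.5 and 64.7 CPM in FGF2 early replicates 1 to 4, and at 51.01, 82.5, 86.2 and 70.5 CPM in FL early replicates 1 to 4. FL early replicates 2 and 3 exceeded every parental library and replicate 1 was the lowest of the early flasks. KIF14 was not called, at −0.25 ± 0.17 in FGF2 early (adjusted p = 0.295) and −0.15 ± 0.17 in FL early (adjusted p = 0.566), except in FGF2 early with the 2 arms alone (adjusted p = 0.0035).

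ANLN, or anillin, a scaffold of the cleavage furrow, stood at 73.7, 78.7 and 76.8 CPM in parental and 8.66, 6.701 and 5.74 CPM in acute libraries, a change of −3.44 ± 0.20. ANLN was at 64.003, 73.4, 54.4 and 65.02 CPM in the FGF2 early flasks 1 to 4 and at 57.4, 87.9, 88.6 and 61.4 CPM in the FL early flasks 1 to 4. FL early replicates 2 and 3 again exceeded all parental libraries, while replicates 1 and 4 and the FGF2 early flasks lay below them. ANLN was not called, at −0.25 ± 0.16 in FGF2 early (adjusted p = 0.259) and −0.05 ± 0.16 in FL early (adjusted p = 0.866), and its FL early sign turned without FL early replicate 1 (0.06) or 4 (0.03). With the FGF2 early and parental arms alone it was called lower (adjusted p = 0.0464).

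ECT2, the exchange factor that activates RhoA at the furrow, stood at 31.5, 35.9 and 29.1 CPM in parental and 4.89, 6.804 and 4.54 CPM in acute libraries, a change of −2.57 ± 0.15. ECT2 levels were 27.5, 31.1, 28.7 and 31.2 CPM in FGF2 early replicates 1 to 4 and 23.1, 29.4, 28.03 and 28.2 CPM in FL early replicates 1 to 4. FGF2 early replicates 2 and 4 and FL early replicate 2 exceeded parental replicate 3, and ECT2 was not called, at −0.12 ± 0.13 in FGF2 early (adjusted p = 0.511) and −0.24 ± 0.13 in FL early (adjusted p = 0.195). KIF4A, a kinesin of chromosome arms and midzone, had values of −0.22 ± 0.11 and −0.22 ± 0.11 and was called in neither line (adjusted p = 0.137 and 0.175).

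TOP2A, the topoisomerase that untangles sister chromatids, stood at 480.01, 493 and 436 CPM in parental and 48.4, 44.5 and 39.5 CPM in acute libraries, a change of −3.41 ± 0.11. TOP2A stood at 350.00, 345, 380.3 and 397 CPM in FGF2 early replicates 1 to 4, and at 326, 389.7, 397 and 339 CPM in FL early replicates 1 to 4. All early flasks lay below parental cells. Its change was −0.35 ± 0.09 in FGF2 early (adjusted p = 0.00933) and −0.37 ± 0.09 in FL early (adjusted p = 0.0111), the latter lost without parental replicate 2 (adjusted p = 0.06). MKI67, whose product Ki-67 coats mitotic chromosomes, stood at 737, 729 and 720.3 CPM in parental and 85.1, 66.8 and 54.5 CPM in acute libraries, a change of −3.40 ± 0.17. MKI67 was at 503, 525, 545 and 573 CPM in the FGF2 early flasks 1 to 4 and at 470.03, 644, 693 and 489 CPM in the FL early flasks 1 to 4. The parental libraries of MKI67 were close to each other and above every early flask. MKI67 was lower in FGF2 early (−0.44 ± 0.14, adjusted p = 0.0323), a call lost on leaving out any parental library or FGF2 early replicate 1, 2 or 3 (adjusted p between 0.0584 and 0.0875) or with total counts (adjusted p = 0.0819). In FL early it was not called (−0.35 ± 0.14, adjusted p = 0.106) but was without FL early replicate 3 (adjusted p = 0.0455).

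**Figure D5:**
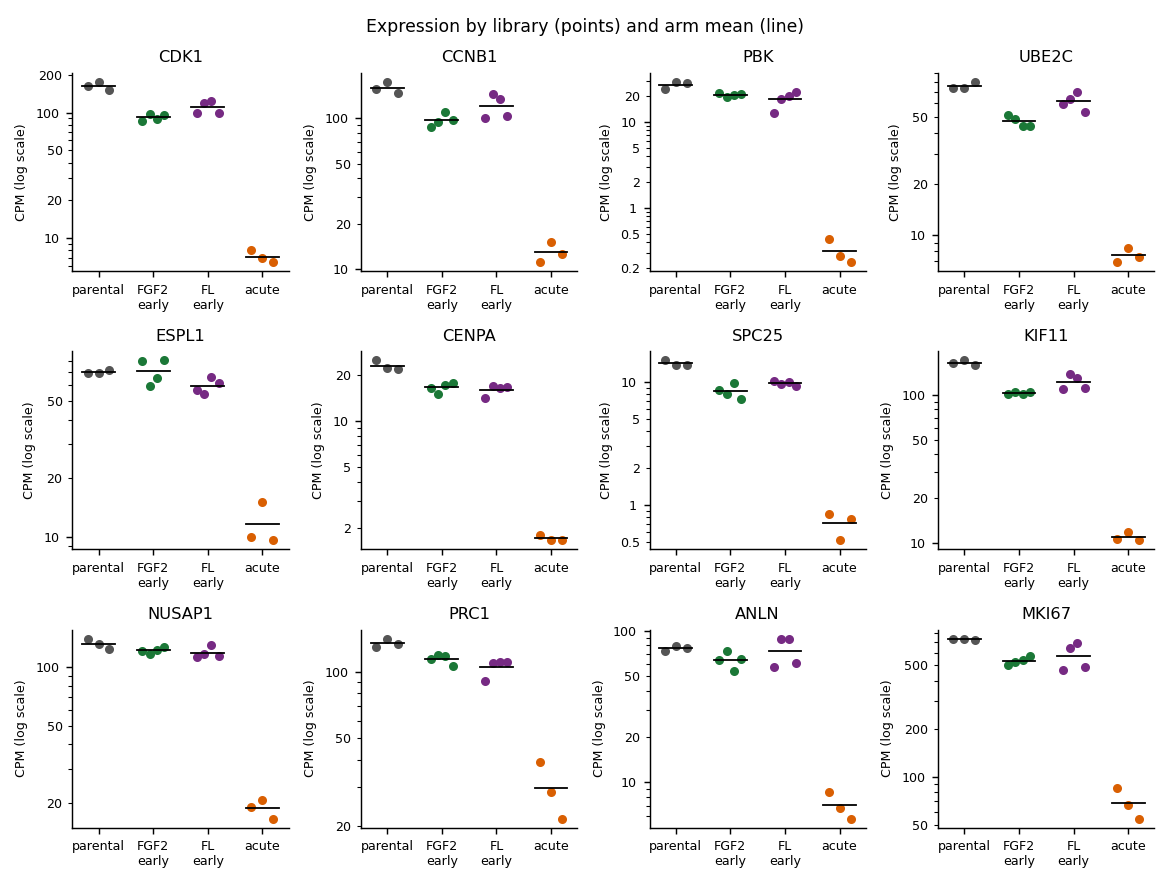
CPM on a log scale for 12 of the genes, 1 point per library and a line at the arm mean, with parental (grey), FGF2 early (green), FL early (purple) and acute (orange) libraries. Acute libraries lie far below all others in every panel, and the FL early points of CCNB1, ANLN and MKI67 fall into a higher and a lower pair.

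The FL early flasks were less alike on these genes than the FGF2 early flasks or the parental libraries. The median coefficient of variation over the 43 was 11.25% in FL early, 6.03% in FGF2 early, 5.05% in parental and 18.34% in acute libraries, the last of which mixes ligands. Replicates 2 and 3 of FL early were both above replicates 1 and 4 for 29 of the 43 genes and both below for 0. At least 1 of replicates 2 and 3 reached the lowest parental library for 11 genes, and at least 1 of replicates 1 and 4 for 1. The order was not that of a single role, since it appeared in NEK2, CENPE, KIF14 and ANLN alike. Nor was the closeness of replicates 2 and 3 particular to the 43 genes. Over all genes tested, log CPM of FL early replicates 2 and 3 correlated at 0.9852, and the other FL early pairs at 0.9685 to 0.9707. Replicates 1 and 4, at 0.9707, did not stand out as a pair in the same way, next to 0.9701 for replicates 3 and 4. Pairs of FGF2 early flasks correlated at 0.985 to 0.9877.

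Set against each other, the 2 early lines differed in few of the genes. UBE2C was lower in FGF2 early than in FL early (−0.39 ± 0.09, adjusted p = 0.0113), and so was KIF11 (−0.25 ± 0.08, adjusted p = 0.0447). These 2 of 43 calls (4.65%) stand beside 9.56% of all genes tested that were lower and 4% that were higher, and the median over the 43 was −0.02. With total counts in place of TMM the share of lower among all called genes went from 70.5% to 55.5%, and UBE2C alone was called among the 43. UBE2C kept its call under all 16 alternatives. KIF11 lost it without any 1 of 6 libraries (the 4 FGF2 early flasks and FL early replicates 2 and 3, adjusted p 0.0847 to 0.137) and with total counts, without the low-count filter or with the 2 arms alone (adjusted p = 0.0863, 0.0763 and 0.0859). Without FL early replicate 1 the count was 6 and without FL early replicate 4 it was 5, and without any 1 of the other 6 flasks it was 1. DESeq2 called 4.

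CENPE (−0.43 ± 0.14, adjusted p = 0.06) had the largest difference of the 43 genes and was not called. CCNB1 (−0.33 ± 0.12, adjusted p = 0.0992) and CDK1 (−0.27 ± 0.09, adjusted p = 0.0584) differed by more than KIF11 and were not called. These 3 passed without FL early replicate 1 (adjusted p = 0.0298, 0.046 and 0.0381) or 4 (adjusted p = 0.0134, 0.0436 and 0.026), and CENPE and CDK1 also with DESeq2 (adjusted p = 0.0298 and 0.031). Flasks of the 2 lines did not overlap for CDK1, UBE2C and KIF11, lower in FGF2 early, and for MAD2L1, higher in it (0.21 ± 0.12, adjusted p = 0.296). Among all genes tested 9.47% were lower and 7.87% higher without overlap.

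Within the acute arm each ligand state has 1 library, so the differences have no replicate check and no test. They are given on the log2(CPM + 0.5) scale, which understates changes of low genes. With FGF2, MAD2L1 (0.81) and CDC25C (0.62) were over 1.5-fold higher than without ligand, and CENPI, CKAP2L, HMMR, TTK and FOXM1 were over 1.5-fold lower, the first at −0.96. Over all genes 7.50% were past 1.5-fold higher and 6.82% lower. With FL, 0 genes were past 1.5-fold higher (7.45% of all genes) and 7 lower (6.59% of all). The 7 were TTK (−0.90), KIF14 (−0.87), PRC1 (−0.84), NEK2 (−0.79), MKI67 (−0.64), KIF18A (−0.62) and KIF20A (−0.60). The library with FL was the lowest of the 3 for 26 of the 43 genes, and the library without ligand the highest for 25. None of the 43 genes reached parental levels with either ligand, the highest log2 ratio to the parental mean being −2.21 with FGF2 and −2.64 with FL. The median ratio was −3.37 without ligand, −3.51 with FGF2 and −3.66 with FL. Single genes moved either way, and the library with FGF2 was the highest of the 3 for 15 of the 43.

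Other genes linked to mitosis gave a wider spread. Of 124 genes in 10 further lists, 105 fell and 8 rose in acute cells, with a median of −1.89. The lists include 5 genes of the MuvB core, which regulates transcription and is no part of the mitotic structures. Over all genes tested 30.3% were lower and 32.3% higher, and these shares stand beside the counts of each list. All 8 condensin genes and all 13 further regulators of mitotic entry fell, as did 15 of 16 genes of the inner kinetochore. The list of the anaphase-promoting complex moved less, with 11 of 17 lower, 3 higher, a median of −0.48 and a range of −2.57 to 1.15. It holds core subunits, which act beyond mitosis, but also the regulators FZR1 and FBXO5 and the enzyme UBE2S. Of 14 cohesin genes 11 fell and 1 rose, with a median of −0.58. The 8 that rose were CENPT, MAD1L1, ANAPC2, ANAPC16, CDC16, MAU2, KIF13A and LIN37.

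In FGF2 early cells 36 of the 124 were lower and 4 higher against parental cells (median −0.13), beside 17.1% and 13.3% of all genes tested. In FL early cells 30 were lower and 3 higher (median −0.21), beside 9.76% and 10.9% of all genes. The genes of smallest p in FGF2 early included BUB3, a checkpoint protein (−0.48 ± 0.06, adjusted p = 7.13e-05), and ZWINT, which recruits the checkpoint to kinetochores (−0.46 ± 0.06, adjusted p = 6.81e-05). CKS2, a small subunit of CDK complexes, changed by −0.74 ± 0.11 (adjusted p = 3.81e-04), and the condensin subunit NCAPG by −0.61 ± 0.11 (adjusted p = 0.00121). CEP55, which gathers the abscission machinery at the midbody, changed by −0.52 ± 0.09 (adjusted p = 9.12e-04). Higher in both early lines were ANAPC2, the cullin subunit of the anaphase-promoting complex, MAU2, a cohesin loader, and NUMA1, which tethers dynein at spindle poles. NUMA1 changed by 0.53 ± 0.08 in FGF2 early (adjusted p = 4.26e-04) and 0.26 ± 0.08 in FL early (adjusted p = 0.0374). LIN37, of the MuvB core, was higher in FGF2 early (0.46 ± 0.14, adjusted p = 0.0234). Between the early lines CENPO and NUMA1 were higher and KIF3A and CHMP4B lower in FGF2 early. These 2 higher and 2 lower of 124 stand beside 4% and 9.56% of all genes tested. KIF3A had few counts, with 8, 20, 27 and 20 in FGF2 early replicates 1 to 4. It had 80, 104, 65 and 18 in FL early replicates 1 to 4, the last within the FGF2 early range.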

How the data were processed

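RNA-seq of 14 MOLM14 libraries (stranded poly(A), per the labels' protocols) was deposited as a table of estimated counts per Ensembl gene, which the authors made with kallisto and GRCh37, per the submitters' processing notes. The kallisto version, the way transcripts were summed to genes and any rescaling by transcript length are not given in the sources used here, so levels are not compared between genes. Column totals ran from 25723575 to 33075041. The estimated counts were rounded. The filterByExpr function (10 as minimum count, 15 as minimum total) kept 15756 genes, which were fitted in 4 arms by the robust quasi-likelihood method of edgeR 4.0.16 (R 4.3.3) after TMM scaling, with two-sided tests and Benjamini-Hochberg adjustment at 0.05. CPM used TMM library sizes. The scripts were tested on simulated counts. The members and lists were chosen with earlier results of these data known.

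Genes given by library were, in each role, the 2 with the highest mean CPM, the one with the largest acute change, those with the smallest and the largest p in each early line against parental cells, and any called between the early lines. FOXM1 was added after its values were seen, as the transcription factor of the programme. Of each other list up to 2 members with the smallest p in FGF2 early against parental cells could be named, and those whose call went against the rest. The labels name a flask of its own for each early library, while separate cultures are not stated for the 3 parental ones, so p-values reflect the spread among these libraries alone. Libraries of an arm differed by more than sampling noise. Promoter sequences came from RefSeq, matched by symbol on GRCh38.p14, a build other than that of the counts, and exons from GENCODE 29. Alternatives changed the scaling (RLE, upper quartile, total counts, TMM without ribosomal protein and mitochondrial genes), the filter, the test (DESeq2 1.42.0), the arms in the fit and the acute libraries used, added a replicate block and left out each library in turn. Python 3.11.15 with matplotlib 3.10.9 made the figures.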

Additional observations from a re-analysis of the deposited data

Results flagged for a closer look

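In FL early replicate 3, NDC80, the subunit that names the microtubule-binding complex, stood at 40.41 CPM against 32.2 to 33.53 CPM in the other FL early flasks. In FL early replicate 1, PRC1, the midzone bundling protein, stood at 91.01 CPM against 110.3 to 110.9 CPM in the others. Each lies further from its nearest neighbour than Dixon's critical value for 4 samples allows, at 0.838 and 0.971 of the range. Of the 86 groups of 4 flasks checked (43 genes in 2 lines) 2 were so marked, and chance marks about 1 in 20 groups.

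The change against parental cells differed between FGF2 early and FL early for UBE2C by −0.3864 on the log2 scale (adjusted p = 0.0113) and for KIF11 by −0.2463 (adjusted p = 0.0447), by edgeR's test of the 2 early arms against each other.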

How the results depend on the processing

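Against acute cells and between acute and parental cells, all 43 calls were kept under every alternative run (14 or 15 for each comparison). The count of lower genes in FL early against parental cells was 27 with DESeq2 and 6 to 22 when 1 library was left out. Lower calls over all genes tested moved as well, from 1537 to 2085 with DESeq2 and to 727 without parental replicate 2. In FGF2 early the count among the 43 was 14 to 20 when 1 library was left out. Between the early lines the count was 1 with total counts only, without the low-count filter, with only the 2 arms compared and with the replicate block, 4 with DESeq2, and 1 to 6 when 1 library was left out. Signs turned for values near 0 that were not called: MAD2L1 in FGF2 early (0.0274 with total counts only and 0.0162 without parental replicate 2), ESPL1 in FGF2 early (−0.0275 and −0.046 without FGF2 early replicates 1 and 4, and −0.0263 with the replicate block), NEK2 in FL early (−0.0172, −0.0727 and −0.0556 without FL early replicates 2 and 3 and parental replicate 3) and ANLN in FL early (0.0646 and 0.0305 without FL early replicates 1 and 4). With 1 library left out these values ran from −0.0964 to 0.0162 for MAD2L1, −0.046 to 0.1074 for ESPL1, −0.0727 to 0.1406 for NEK2 and −0.1482 to 0.0646 for ANLN. The cause was not tested. Upper quartile scaling took the median of all genes from 0.07 to 0.18 in acute against parental cells (a shift of 0.11), and moved it by −0.12 in FGF2 early and −0.13 in FL early against acute cells. Same-numbered libraries deviated together with correlations of −0.0939 to 0.0658, so the numbers were not taken as pairs. With the replicate block the counts were 23 in FGF2 early, 18 in FL early and 1 between the lines. PLK1 in FGF2 early (adjusted p = 0.0524), UBE2C in FL early (adjusted p = 0.0746) and KIF11 between the lines (adjusted p = 0.0548) were then not called, and PRC1 in FL early was (adjusted p = 0.0166). No paired analysis was possible for the acute comparisons because the acute libraries share the number 1 alone. In acute libraries the low counts of PBK limit its precision.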
